A study of Mus musculus with 8 samples.

Results

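Box H/ACA small nucleolar RNAs (snoRNAs) and small Cajal body RNAs (scaRNAs) were described in small RNA libraries of mouse heart. The genes were chosen by name and annotated type (Snora or Scarna names, or gene type scaRNA) and by a mean of normalised counts above 0, and genes lying inside ribosomal protein genes, Gas5, Rian or Snhg genes were left out. This gave 32 genes of 54531 features in the deposited table, namely 13 named Snora, 8 named Scarna and 11 scaRNA genes with Gm names. The level of a gene below is the authors' mean, that is, reads per gene scaled between libraries by DESeq2 size factors and averaged over the 8 libraries. It is a level per feature and not per base unless a length is named.

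The libraries came from 24-week-old C57BL/6 mice, 4 wild type (RNase H1+/+) and 4 RNase H1-/-, in which Cre recombinase driven by the muscle creatine kinase promoter (Ckmm-cre) removes a loxP-flanked exon of *Rnaseh1* in heart and skeletal muscle, so that other cells of the heart keep the gene. The study writes its heart controls as L/L, that is with loxP alleles and without Cre, whereas the labels give +/+. The labels name heart tissue as the source, whereas the study's methods describe RNA of isolated heart mitochondria for this assay. The deposited columns of values per library have names that begin with mtRNA, as for the RNA in the methods. It was not settled here which of these sources holds. RNase H1 degrades RNA that is paired with DNA, and the libraries were made to follow short mitochondrial transcripts after its loss. Values per library could not be given to a library or a genotype by name, so no genotype comparison, replicate spread or test is given for these genes, and all levels are averages over both genotypes.

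Box H/ACA snoRNAs fold into a pair of hairpins, each followed by a short single-stranded box, the H box at the hinge and the ACA box just before the 3′ end. Bound by the pseudouridine synthase dyskerin (Dkc1) with Nop10, Nhp2 and Gar1, they guide the conversion of uridine to pseudouridine in ribosomal RNA. ScaRNAs guide the modification of spliceosomal small nuclear RNAs in Cajal bodies. They may be of the H/ACA kind, of the box C/D kind, which guides ribose methylation and carries a C box near the 5′ end and a D box near the 3′ end, or a composite of both.

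The letters of these boxes divided the genes into a large group at low levels and a small group that held the highest gene. The sequences below, from the GENCODE M21 transcripts on GRCm38, show both kinds. They are the 4 highest Snora genes, the highest gene with a Gm name, and Scarna9 as a short gene with C and D boxes. Capitals in the first 5 mark the ACA near the 3′ end and, where found, a match to ANANNA, the letters of the H box, near the middle. Snora17 holds 3 overlapping matches, starting at bases 62, 64 and 66 from its 5′ end, and the one at 64 is in capitals. Capitals in Scarna9 mark TGATGA of the C box and CTGA of the D box.
Snora34: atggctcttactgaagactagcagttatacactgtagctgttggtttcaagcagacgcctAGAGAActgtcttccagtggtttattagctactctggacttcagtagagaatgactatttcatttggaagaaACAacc
Snora17: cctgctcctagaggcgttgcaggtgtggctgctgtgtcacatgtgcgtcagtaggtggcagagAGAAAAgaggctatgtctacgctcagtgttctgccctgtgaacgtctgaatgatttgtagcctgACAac
Snora31: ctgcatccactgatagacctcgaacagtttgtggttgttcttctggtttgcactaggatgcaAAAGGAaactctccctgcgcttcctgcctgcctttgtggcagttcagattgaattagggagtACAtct
Snora57: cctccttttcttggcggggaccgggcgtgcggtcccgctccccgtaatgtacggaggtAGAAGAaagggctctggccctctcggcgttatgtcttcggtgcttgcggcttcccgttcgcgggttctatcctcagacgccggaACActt
Gm23751: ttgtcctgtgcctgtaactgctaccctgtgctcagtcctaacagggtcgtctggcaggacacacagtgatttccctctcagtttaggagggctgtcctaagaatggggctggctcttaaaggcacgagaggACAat
Scarna9: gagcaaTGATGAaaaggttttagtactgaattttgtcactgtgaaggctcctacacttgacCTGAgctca

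In genome coordinates of GRCm38, Snora34 (ENSMUSG00000065336) lies at chr15:98519716-98519853 on the minus strand in an intron of Kansl2. Snora17 (ENSMUSG00000077192) lies at chr2:26639190-26639321 on the minus strand outside annotated genes. Snora31 (ENSMUSG00000065147) lies at chr14:75847905-75848034 on the plus strand in an intron of Tpt1. Snora57 (ENSMUSG00000070167) lies at chr19:8888538-8888685 on the minus strand, where the gene around it, Lbhd1, is on the other strand. Gm23751 (ENSMUSG00000088208) lies at chr6:125121724-125121859 on the plus strand in an intron of Chd4. Scarna9 (ENSMUSG00000077506) lies at chr9:15326264-15326333 on the minus strand in an intron of Cep295.

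An ACA followed by exactly 3 bases ended 17 of the 32 sequences and none of the 99 genes named Snord, the box C/D snoRNAs. With 2 to 4 bases after the ACA, a range set after the sequences were seen, 23 of the 32 had it against 2 of the 99 Snord genes (2.02%). All 13 genes named Snora were among the 23. So were Scarna3a, Scarna3b and Scarna8 and 7 of the 11 genes with Gm names. Of the 57 genes of the rule's names listed at a mean of 0, taken whatever their host, 46 (80.7%) had this ACA. Searched on the sense strand between 35% and 60% of the length, ANANNA was found in 25 of the 32 genes. It was also found in 45.5% of Snord genes, so that these letters alone do not mark the kind, and in 89.5% of those 57 genes.

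TGATGA in the first 20 bases together with CTGA in the last 15 was found in 7 genes, which were Scarna17, Scarna10, Scarna9, Scarna6, Gm25443, Gm22009 and Gm25395. The same pair of boxes was found in 68.7% of the 99 Snord genes and in none of the 57 genes that the rule names but that were listed at a mean of 0. Scarna2 and Gm23119 had neither this pair nor the ACA. The human counterpart of Scarna2 is a box C/D scaRNA that guides methylation of the U2 small nuclear RNA. The deposited feature of Scarna2, with 414 bases, is far longer than its RefSeq entry of 61 bases. Which of these lengths is that of the RNA was not tested.

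Levels differed widely between the genes, and Scarna17 held nearly all of the signal. Scarna17, whose human counterpart is a box C/D scaRNA for spliceosomal RNAs, had a mean of 3164, which was 94.0% of the summed mean of 3366 over the 32 genes. It was 64.6 times the level of the next gene, Gm23751. It ranked 18 among all snoRNA and scaRNA features, and Gm23751 ranked 59. Without Scarna17, the other 31 genes summed to 202, with a median of 1.83. In bulk RNA, fewer cells of a type and less RNA per cell cannot be told apart.

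**Figure D1:**
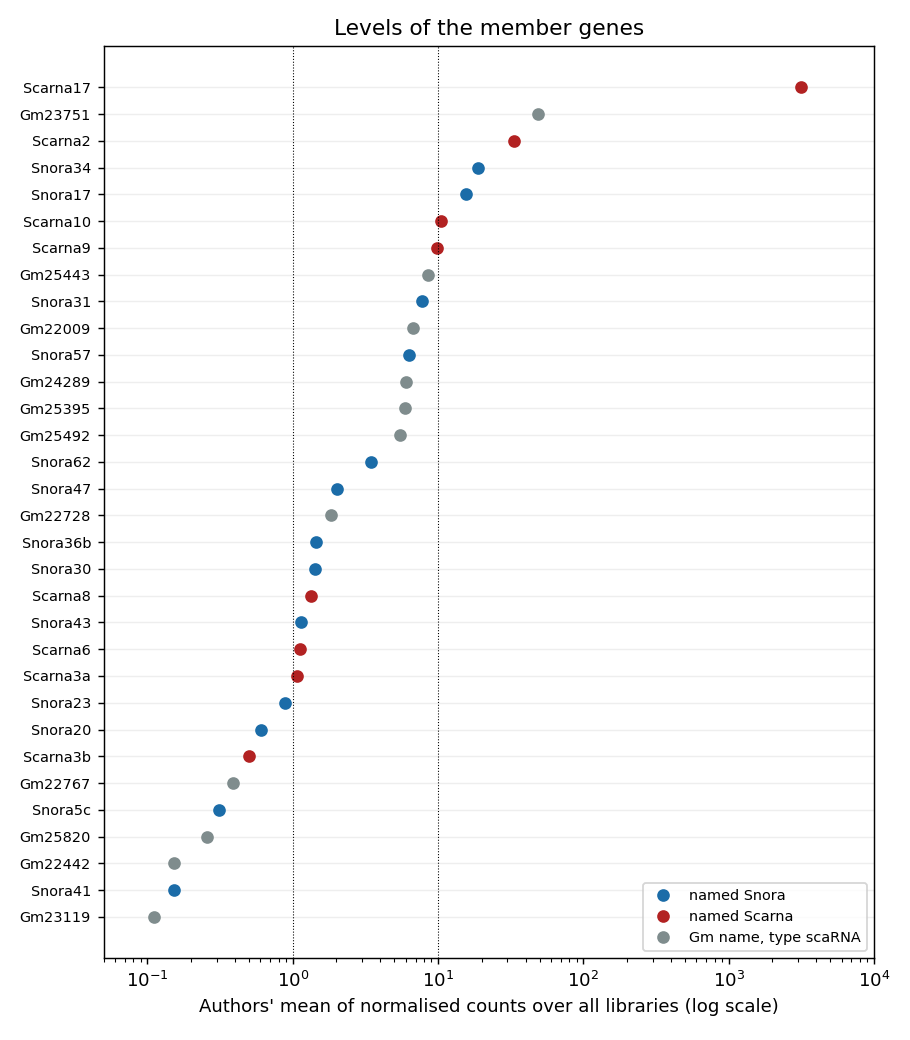
Authors' mean of normalised counts over all 8 libraries (log scale) for each of the 32 genes, coloured by the kind of name, with dotted lines at means of 1 and 10. Scarna17 stands at 3164, the next gene at 49.0, and 9 genes lie below 1.

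Next to Scarna17, 5 genes had a mean of at least 10. Gm23751, an scaRNA gene with the ACA, had a mean of 49.0. Scarna2 (ENSMUSG00000088185), at chr3:108554338-108554751 on the minus strand outside annotated genes, had a mean of 33.3. The H/ACA snoRNAs Snora34 and Snora17 had means of 18.7 and 15.6. Scarna10 (ENSMUSG00000089617), whose human counterpart is a composite guide for the U5 small nuclear RNA, had a mean of 10.5. It lies at chr6:125186359-125186683 on the minus strand and overlaps exons of Ncapd2. These values correspond to 392, 266, 150, 125 and 84.3 normalised reads summed over the 8 libraries, so that all genes after Scarna17 rest on few reads.

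A further 17 genes had means from 1 to under 10. At the upper end were Scarna9 (9.76), which in human guides methylation of the U2 small nuclear RNA, Gm25443 (8.46), Snora31 (7.74) and Gm22009 (6.77). Gm25443 (ENSMUSG00000089625) lies at chr19:11695267-11695342 on the plus strand outside annotated genes, and Gm22009 (ENSMUSG00000089417) at chr3:69085105-69085447 on the minus strand in an intron of Kpna4. Below them stood Snora57 (6.34), Gm24289 (6.04), Gm25395 (5.96), Gm25492 (5.44) and Snora62 (3.48). The other 8 lay between 1.06 for Scarna3a and 2.03 for Snora47, with Gm22728, Snora36b, Snora30, Scarna8, Snora43 and Scarna6 between them. Without values per library, it was not tested whether neighbours in this order differ.

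The remaining 9 genes had means under 1, that is fewer than 8 normalised reads over all libraries. They were Snora23 (0.884), Snora20 (0.60), Scarna3b (0.50), Gm22767 (0.388), Snora5c (0.313), Gm25820 (0.255), Snora41 and Gm22442 (both 0.152) and Gm23119 (0.112). The last of these is just inside the threshold, with 0.892 normalised reads in all. On the other side of the threshold, 41 genes of the same names and types outside the barred hosts were listed at 0, of which 9 were named Snora.

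Grouped by their boxes, the 7 genes with the C and D boxes summed to 3206, or 95.3% of the total, and the 23 genes with the ACA to 126, or 3.74%. The medians were 8.46 and 1.43, or 3.24 and 1.09 per 100 bases. The ACA was searched only near the 3′ end, so a composite guide with C and D boxes at its ends falls in the first group. Scarna10, whose human counterpart is a composite, is among these 7, so the groups are not box C/D against H/ACA kinds. Leaving out Scarna17, the remaining 6 genes with C and D boxes summed to 42.6, with a median of 7.62 and a highest value of 10.5, below the highest value with the ACA, 49.0 for Gm23751. Most of the signal under these gene names thus came from 1 feature with box C/D letters, Scarna17, and not from the genes with the ACA.

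Scarna17 (ENSMUSG00000088689) lies on chromosome 18, from 74778391 to 74778469 on the minus strand, outside annotated genes, and the low Gm23119 lies on the same strand from 74778561 to 74778700. Gm25443 on chromosome 19 shared 51 runs of 20 bases with Scarna17, which was 89.5% of the runs in Gm25443. The aligner reports 1 place for a read that fits both, so reads could have been split between them, and the mean of 8.46 for Gm25443 against 3164 for Scarna17 is uncertain for that reason. Runs were also shared by Snora30 with Gm25133 (66.7% of its runs), Snora5c with Gm23346 (65.8%), Snora57 with Gm26132 (45.0%) and Snora17 with Gm25617 (27.4%) and Gm25053 (21.2%). Their levels are uncertain in the same way. Of these other features, Gm25053 had a mean of 5.70, Gm25617 of 1.25, Gm23346 of 0.260, Gm25133 of 0.112 and Gm26132 of 0.0637.

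Per length, 18 of the 32 genes took another place in the order. Divided by the length of the deposited feature, Scarna17 had a mean of 4005 per 100 bases and Gm23751 36.0, followed by Scarna9 (13.9), Snora34 (13.6), Snora17 (11.8), Gm25443 (11.1), Scarna2 (8.04) and Snora31 (5.96). RefSeq entries, on GRCm38.p6, were found for all 32 genes and had the same length in 14. Reads were counted over the deposited features, so a mean divided by the length of a shorter RefSeq entry is not a density over that entry. By the RefSeq length, Scarna2 moved from 8.04 to 54.5 per 100 bases, above Gm23751, and Scarna10 from 3.24 to 14.8, since their entries are 61 and 71 bases against features of 414 and 325. Whether Scarna2 exceeds Gm23751 per base is therefore not shown. Scarna9 moved from 13.9 to 23.2 and Scarna17 to 5103. A RefSeq entry may also leave out part of the RNA. That of Scarna9, 42 bases from 15326289 to 15326330, does not reach the CTGA near the 3′ end of the deposited feature.

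**Figure D2:**
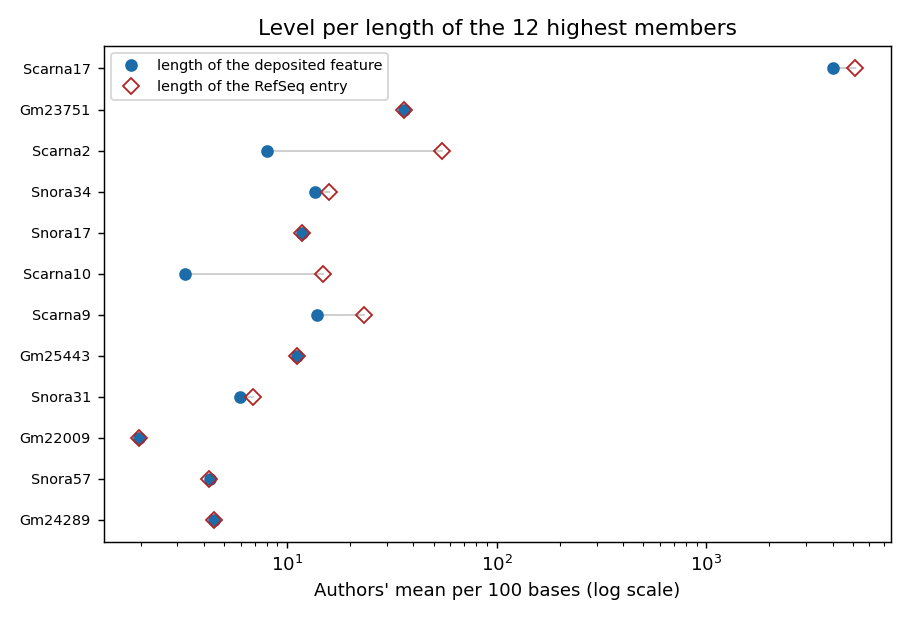
Authors' mean per 100 bases (log scale) for the 12 highest genes, with the length of the deposited feature as filled circles and that of the RefSeq entry as open diamonds. For both, reads were counted over the deposited feature. Scarna2 moves from 8.04 to 54.5 and Scarna10 from 3.24 to 14.8, while Scarna17 is far to the right by either length.

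Most of the 32 genes were long and low, and most Snord genes with a mean above 0 short and high, in the same libraries. This sets names and not box kinds side by side. The 23 genes with the ACA were 128 to 184 bases long, and the 7 with C and D boxes 70 to 343. Of the 32 genes, 3 were shorter than 100 bases (Scarna17, Scarna9 and Gm25443), 22 were from 128 to under 150 bases long and 7 were longer. Among 99 Snord genes, 58 had a mean above 0, with a median of 268, or 305 per 100 bases, against a median of 1.93, or 1.44 per 100 bases, for the 32 genes. A mean of at least 10 was reached by 72.4% of these Snord genes and by 18.8% of the 32. The Snord genes were taken whatever their host. Outside the hosts barred for the 32 genes, 30 of 50 Snord genes had a mean above 0, with a median of 279, and 93.3% of the 30 reached 10. Together, the 32 genes held 0.555% of the summed mean of snoRNA and scaRNA features, and 0.0335% without Scarna17, which was then also left out of the total.

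Length moved with the kind of name in this comparison. The 48 Snord genes with a mean above 0 and from 50 to under 100 bases had a median of 457. From 120 to under 150 bases, the 2 Snord genes with a mean above 0 had a median of 17.1, and the 22 genes of that length considered here had a median of 1.43. The highest Snord gene of that length, Snord118, stood at 33.1, below Gm23751. Gm25117, a snoRNA or scaRNA feature of that length outside both sets, stood at 97.5, above Gm23751. Apart from the genes considered here, 64 snoRNA and scaRNA features of that length had a mean above 0, with a median of 1.0. From 50 to under 100 bases, 152 such features had a mean above 0, with a median of 0.770, no higher than at the longer range. This wider set includes Snord genes, and Snord55 was its highest feature, at 180452. From 100 to under 120 bases, the 7 Snord genes had a median of 63.1, with Snord43 highest at 40246. The 8 features of the wider set above 0 in that range had a median of 46.2. The range of sizes kept in the libraries and the read length were not given in the sources used here, and the part of length in these levels was not tested.

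**Figure D3:**
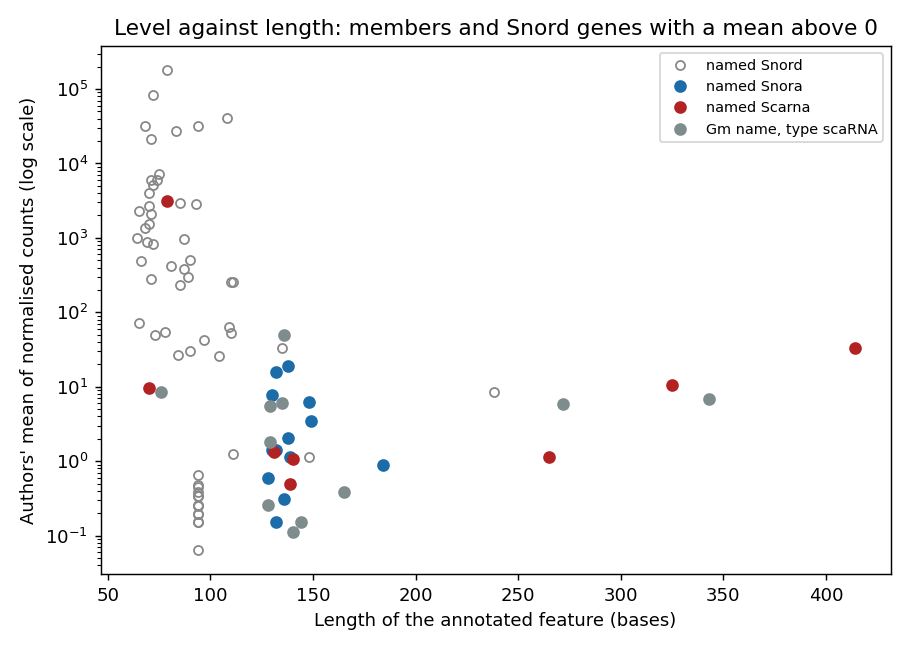
Authors' mean of normalised counts (log scale) against the length of the annotated feature for the 32 genes (filled, by kind of name) and the 58 Snord genes with a mean above 0 (open circles). Scarna17, with 79 bases, lies among the Snord genes, and the genes from 128 bases upwards lie at or below 49.0.

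Most of the genes are intronic, as is usual for mammalian snoRNAs, which are released from the spliced introns of host genes. A host on the same strand was annotated for 25 of the 32, in 24 different genes, and 23 lay wholly within an intron. Atg16l1, an autophagy gene, holds both Gm25395 (5.96) and Scarna6 (1.13). Snora31 lies in Tpt1, Snora41 in the translation elongation factor gene Eef1b2, Snora20 in Tcp1, a subunit of the cytosolic chaperonin, and Snora23 in the importin gene Ipo7. The 6 genes that lay inside no other gene of either strand were Scarna17, Scarna2, Snora17, Gm25443, Snora43 and Gm23119, of which Snora43 overlaps a second annotated Snora43 gene in part.

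The hosts themselves had few reads in these libraries, but no fewer than most features with a mean above 0. Counted per gene they hold, their means ran from 0 to 6.51 for Chd4, with a median of 1.22 and 12 of 25 under 1. Over all 14456 features with a mean above 0, the median was 0.428, and 3870 reached 1. The highest host, Chd4, holds Gm23751, the second highest of the 32 genes, and Tpt1 (3.97) holds Snora31 (7.74). Ipo7 (6.34) and Tcp1 (5.61) were also among the highest hosts, whereas their snoRNAs Snora23 (0.884) and Snora20 (0.60) were among the lowest of the 32 genes. Kansl2 (0.472), the host of Snora34, and Tipin (0.103), the host of Gm24289, were among the hosts under 1. Ncapd2 and Zbed3, the hosts of Scarna10 and Snora47, were listed at 0.

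For 8 genes, the annotation could affect the count. Their features overlap an exon of another gene on the same strand, and featureCounts by default leaves out a read that overlaps more than 1 gene. Scarna10 shares 237 of 325 bases with exons of Ncapd2 and 281 with Gm28967, and Snora5c shares 127 of 136 bases with exons of Tbrg4. Snora43 and Gm25820 each overlap a second annotated gene of the same name at the same place, by 127 of 139 and 127 of 128 bases, and those second genes were listed at 0. Annotated microRNA genes overlap Snora34 (Mir1291, 92 bases), Snora36b (Mir664, 64 bases), Scarna3a (Mir1843b, 65 bases) and Scarna3b (Mir1843a, 65 bases). Of these microRNA genes, Mir1843b had a mean of 5.56, and the other 3 were listed at 0. Scarna3b also shares 124 of its 139 bases with CT030161.1, listed at 0.

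The rule on hosts left out 6 further genes with a mean above 0, all low. They were Snora21 in Rpl23 (3.33), Snora73b (2.56) and Snora73a (1.16) in Snhg3, Scarna13 in Snhg10 (0.589), Snora78 in Snhg9 and Rps2 (0.425) and Snora69 in Rpl39 (0.365). Their sum was 8.44. At the edge of the rule, Snora62 stayed in because its host Rpsa, a ribosomal protein gene, does not have a name of the form the rule bars, and Snora17 because it lies 1051 bases from Snhg7os.

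Genes for the proteins that act with these RNAs mostly had means under 1, as did most features with a mean above 0. Of the 14456 features with a mean above 0, 3870 reached 1, and the median was 0.428. Of 9 genes of the H/ACA core and its assembly, 8 had a mean above 0 and none reached 1, with Nop10 highest at 0.627 and Dkc1 at 0.516. The 5 Cajal body genes also stayed under 1, including Coil, which encodes coilin, at 0.344 and Nolc1, a chaperone of snoRNA particles, at 0.515. Of 4 box C/D core genes, only Nop56, itself a host of snoRNA genes, was above 1, at 105. Terc, the RNA of telomerase and itself of the H/ACA kind, had a mean of 0.407. Of 1385 genes of type snRNA, the class of RNAs that scaRNAs modify, 170 had a mean above 0, and they summed to 772.

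As checks on the libraries, *Rnaseh1* was listed at 0 and gave no check of the genotypes. All 8 cardiomyocyte markers had a mean of at least 1 and summed to 1279, with Myh6 highest at 662, so that RNA of heart muscle was present. Markers of other cell types summed to 64.5 for 5 fibroblast genes, 24.6 for 5 endothelial genes, 16.1 for 4 smooth muscle and pericyte genes, 9.39 for 5 leukocyte genes (Cd3e at 0), 33.5 for 4 erythroid genes, 6.12 for 4 adipocyte genes and 33.2 for 4 skeletal muscle genes. The skeletal muscle sum came mostly from Ckm (20.5) and Acta1 (11.8), with Myh4 at 0.686 and Mylpf at 0.152. Ckm is the muscle creatine kinase gene, whose promoter drove Cre in heart too. The adipocyte sum came mostly from Fabp4 (2.98) and Plin4 (2.81), with Adipoq at 0.215 and Plin1 at 0.112. Neither sum shows by itself that cells of that type were present. The nuclear RNAs Malat1 and Neat1 summed to 136, and scaRNAs are nuclear as well. The summed mean of all 54531 features was 822885, of which the 32 genes held 0.409%, and 14456 features had a mean above 0.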

How the data were processed

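The 8 small RNA libraries were analysed together. According to the methods and the submitters' processing notes, the authors used Bowtie2 2.3.4.1 at default settings to place single-end reads on mm10. Strand-aware counts per gene were then made with featureCounts 1.6.3 on Ensembl annotation of GRCm38, to which the authors added mitochondrial features. For each feature the authors deposited a signal, the mean over all libraries of counts scaled by DESeq2 1.18.1. This mean was the only measurement used. It also stood in for the mean of the normalised columns in the rule for choosing genes, since the authors' DESeq2 output defines it so. The 8 columns of values per library carry names that fit neither a title nor a genotype in the labels, and were not used. Columns with fold changes, standard errors, test statistics and p-values of the authors' own genotype comparison were not used either. The tests planned on values per library (limma, exact permutation tests) therefore could not be run, and depth per library was not analysed here. A block of mitochondrial rows repeated below the main table was left out.

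Hosts, strands and sequences came from GENCODE M21 (GRCm38), which held 54372 of the 54531 features and gave all 32 genes the deposited coordinates. Boxes were searched as letters on the sense strand, and runs of 20 bases were compared with other small RNA transcripts. By rule, the 10 highest genes and the 5 highest scaRNAs were described in full, with every gene at a mean of at least 10, those next to the thresholds, the hosts, and fixed lists of particle proteins, Cajal body genes and cell type markers. The genes and lists were chosen with earlier results of these data known. Python 3.11.15 with numpy 2.4.6, pandas 2.3.3 and matplotlib 3.10.9 was used.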

Additional observations from a re-analysis of the deposited data

How the results depend on the processing

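The summed mean of the 32 genes was 3366. It was 3362 for genes with a mean of at least 1 and 3291 for those with a mean of at least 10. Per 100 bases it was 4138 by the length of the deposited feature and 5309 by the RefSeq length, an alternative chosen after seeing the data. At least the RefSeq entry of Scarna9 leaves out a box, so the RefSeq sum may rest on entries that are too short. The share held by Scarna17 was 94.0% as deposited, 96.8% per 100 bases and 96.1% per 100 bases of the RefSeq entry. Without Scarna17, the highest gene, Gm23751, held 24.3% of the rest. The median was 1.93, and 6.04 and 26.0 at the minimum means of 1 and 10. The median of Snord genes was 268, and 279 outside the barred hosts, an alternative also chosen after seeing the data.

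No paired analysis was possible because the columns per library carry no name that gives a library or a genotype. For the same reason other pseudocounts, filters on tested features, scalings of libraries, fits without a replicate, edgeR on recovered reads and shares per library were not run. With 9 of 32 genes under a mean of 1, their order among themselves rests on a handful of reads and is not firm.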
